A study of Mus musculus with 6 samples.

Results

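The 10 genes described here are *Vegfa*, *Vegfc*, *Kdr*, *Flt1*, *Flt4*, *Pecam1*, *Cdh5*, *Tek*, *Angpt2* and *Prox1*, which encode ligands, receptors, junction proteins and a transcription factor of blood and lymphatic vessels. They were chosen by name, with earlier results of these data known, and found through their Ensembl identifiers in the mouse GENCODE M21 annotation of GRCm38. They are 10 of the 26579 genes in the count table, and 10 of 10 passed the filter on low counts (1 CPM or more in 3 or more libraries), which 15102 genes passed in all. CPM are counts scaled to the size of the library. The RNA came from whole skin punch biopsies of the dorsal neck of 6 female mice at 33 days of age. There were 3 wild type mice (WT) and 3 YAP2-5SA-∆C transgenic littermates (TG), with 1 RNA-Seq library from each mouse. YAP is the transcriptional cofactor at the end of the Hippo pathway. The transgene gives a mildly active YAP in basal keratinocytes that express Keratin 5 and Keratin 14. All genes were read in the mixed cells of whole skin, which include these keratinocytes, and *Vegfa* is also a keratinocyte gene. The libraries are called WT1 to WT3 and TG1 to TG3 after the replicate numbers in the labels, and p-values measure the spread between these mice.

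Blood vessels of the skin lie in the dermis and below it, and the epidermis itself has none. VEGFA, which keratinocytes secrete and which drives vessel growth, binds the receptor tyrosine kinases KDR (VEGFR2) and FLT1 (VEGFR1) on endothelial cells. KDR carries most of the growth signal, whereas FLT1 binds VEGFA tightly, signals weakly and has a soluble form that traps the ligand. VEGFC acts mainly through FLT4 (VEGFR3) on lymphatic endothelium, whose identity is set by the homeobox factor PROX1. TEK (TIE2) is the endothelial receptor of the angiopoietins, of which ANGPT2 is released by endothelium and loosens vessels. PECAM1 and CDH5 (VE-cadherin) hold endothelial cells together at their junctions.

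Hypoxia-inducible factors (HIF) are the known activators of *Vegfa*, TEAD factors bring YAP to DNA, and ETS factors act in endothelium, so the core letters of these 3 motifs were searched on both strands of RefSeq promoters (GRCm38.p6), each with 250 bases before and 50 after a transcript start. Promoters were found for 7 of the 10 genes, 9 promoters in all, and those of *Pecam1*, *Cdh5* and *Angpt2* were not used here. The HIF core ACGTG was in 1 of the 9 promoters, compared with 19.6% of 32851 promoters. The TEAD core GGAATG was in 0 of 9, compared with 14.7%, and the ETS core CGGAAG in 0 of 9, compared with 16.9%. The match to the HIF core was in *Vegfa*, on the minus strand of chr17:46025358-46025386, and is shown because it was the only match among the 9 promoters. Its capitals mark the reverse complement of the HIF core.

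*Vegfa*: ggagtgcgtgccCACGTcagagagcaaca

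The first base of this motif is 211 bases before a RefSeq start that lies inside the gene. In GENCODE M21 the window lies in exons of 9 *Vegfa* transcripts, coding in 8 of them and untranslated in 0. A match of this length is a description of the letters.

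Total counts on genes ranged from 11225705 to 19505036 per library. *Yap1*, the gene of the transgene, had 131 ± 9.45 CPM (SD, n = 3) in WT and 136 ± 7.31 CPM (SD, n = 3) in TG skin (log2 fold change 0.061, SE 0.074, FDR 0.635 in edgeR's quasi-likelihood test). Transgene reads may or may not be among these counts. Marker genes of other tissues set some libraries apart. The summed level of 8 hair shaft and inner root sheath genes was 12292 to 15410 CPM in WT skin, 6500 and 8324 CPM in TG1 and TG3, and 1323 CPM in TG2. The 7 skeletal muscle genes summed to 1356 CPM in WT1 and 1303 CPM in TG3, but to 6622 and 5445 CPM in WT2 and WT3, with 3365 and 2144 CPM in TG1 and TG2. Because these are bulk samples of whole skin, fewer cells of a type and less RNA per cell cannot be told apart.

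Compared per length, as CPM per kilobase of exon (the union of the annotated exons of a gene), *Vegfa* had the highest level of the group, with 8.9 ± 0.757 (SD, n = 3) in WT and 11.6 ± 2.83 in TG skin. The junction genes *Cdh5* (5.76 ± 0.468 in WT, 6.9 ± 0.935 in TG) and *Pecam1* (5.58 ± 0.507 in WT, 6.97 ± 0.719 in TG) came next, and their ranges over libraries overlapped in both genotypes, so that no order between them can be given. *Tek* (3.89 ± 1.04 in WT, 4.08 ± 0.298 in TG) and *Kdr* (2.67 ± 0.178 in WT, 2.83 ± 0.402 in TG) followed, overlapping in WT and apart in TG skin. *Vegfc* had 1.3 ± 0.23 in WT and 1.22 ± 0.112 in TG skin. Below it in WT skin, *Flt1* (0.962 ± 0.056), *Angpt2* (0.941 ± 0.119) and *Flt4* (0.883 ± 0.191) overlapped as neighbours. In TG skin, *Flt1* stood at 1.4 ± 0.217, overlapped *Vegfc* and was apart from *Angpt2* (0.941 ± 0.184), which overlapped *Flt4* (1.18 ± 0.213). *Prox1* had the lowest mean in both genotypes, with 0.478 ± 0.183 in WT, apart from the other genes, and 0.685 ± 0.135 in TG skin. There its range of 0.534 to 0.794 overlapped that of *Angpt2* (0.748 to 1.11), so no order between these 2 can be given.

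**Figure D1:**
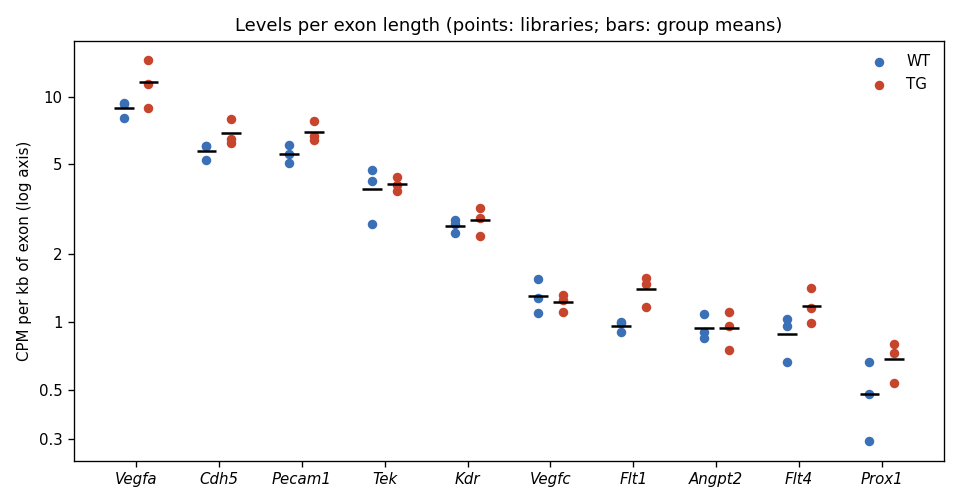
Level of each of the 10 genes in CPM per kilobase of exon (log axis), with 1 point per library (WT blue, TG red) and bars at the group means. *Vegfa* had the highest and *Prox1* the lowest mean in both genotypes, the TG points of *Prox1* and *Angpt2* overlap, and the TG points of *Flt1*, *Pecam1* and *Cdh5* lie above the WT points.

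The study compared gene expression over the whole transcriptome between skin with an active epidermal YAP and wild type skin, and here that comparison was read for vessel genes. None of the 10 genes passed the threshold of the quasi-likelihood test (FDR below 0.05, Benjamini-Hochberg over all genes tested), 0 higher and 0 lower, where 1.91% of all genes tested passed it, 1.44% higher and 0.464% lower in TG skin. The value nearest to the threshold was that of *Flt1*, the decoy-like VEGF receptor, at 1.45-fold the WT level with an FDR of 0.0651. Of the 10 genes, 2 (*Flt1* and *Pecam1*) had an unadjusted p below 0.05, where 26.3% of all genes had one and 13.3% had one and were higher in TG skin. Log2 fold changes were above 0 for 8 genes and below 0 for 2, with a median of 0.29 (0.17 without TG3), compared with a median of -0.013 and 47.6% above 0 over all genes tested. For 3 genes (*Flt1*, *Pecam1* and *Cdh5*) every TG library was above every WT library, and for 0 genes every TG library was below, where 15.5% and 18.2% of all genes tested stood so. EdgeR's likelihood-ratio test called 1 of the 10 and DESeq2 also 1, in both cases *Flt1*, and voom called 0, where they called 10.4%, 10.5% and 1.65% of all genes.

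**Figure D2:**
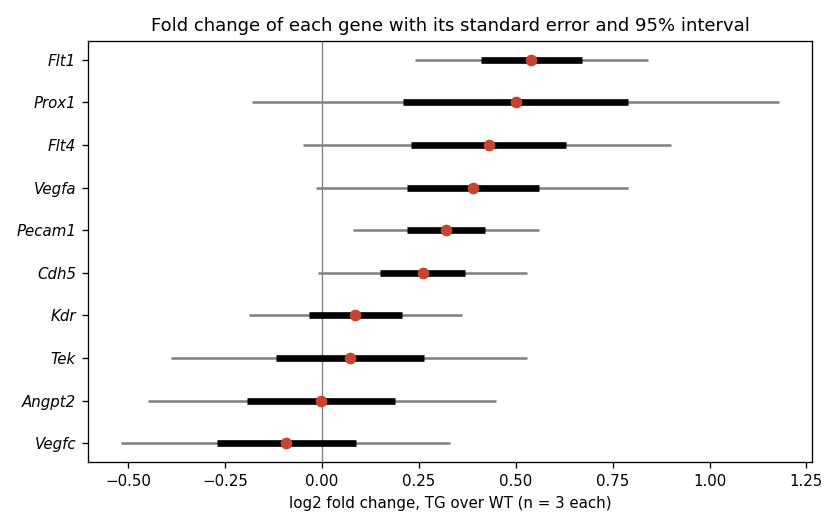
Log2 fold change of TG over WT for the 10 genes from edgeR's quasi-likelihood fit (n = 3 in each genotype), with thick lines for 1 standard error on each side and thin lines for the 95% interval. The intervals of *Flt1* and *Pecam1* lie above 0 before adjustment, and those of the other 8 genes include it.

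Among the ligands, *Vegfa* (ENSMUSG00000023951, chromosome 17 from 46016993 to 46032369) had 34.4, 39.7 and 40.3 CPM in WT1, WT2 and WT3, and 38.3, 48.9 and 62.5 CPM in TG1, TG2 and TG3. TG1 lay within the WT range and the other two TG libraries above it. The means were 38.1 ± 3.25 CPM in WT and 49.9 ± 12.1 CPM in TG skin, 1.31-fold the WT level (log2 fold change 0.39, SE 0.17, 95% interval -0.016 to 0.79, quasi-likelihood FDR 0.203). It was 0.2 without TG3 and 0.57 without TG1. The TG libraries thus spread more widely than the WT libraries for this gene, and the difference did not exceed that spread.

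*Vegfc* (ENSMUSG00000031520, chromosome 8 from 54077606 to 54187096), the lymphatic growth factor, had 3.79, 2.66 and 3.13 CPM in WT and 3.05, 2.7 and 3.24 CPM in TG skin. All TG libraries lay within the WT range, and the log2 fold change was -0.092 (SE 0.18, 95% interval -0.52 to 0.33) with an FDR of 0.775. Of the other 3 VEGF ligand genes, *Vegfb* and *Vegfd* were tested, 0 passed the quasi-likelihood test and 1 had an unadjusted p below 0.05. *Vegfd*, a ligand of FLT4 like VEGFC, had 7.41, 6.16 and 7.69 CPM in WT and 9.77, 12.2 and 9.28 CPM in TG skin. Its groups did not overlap (log2 fold change 0.56, SE 0.15, FDR 0.0768 in the quasi-likelihood test, 0.0342 in the likelihood-ratio test, 0.0421 in DESeq2 and 0.0774 in voom). Without TG2 the log2 fold change of *Vegfd* was 0.45, with a quasi-likelihood FDR of 0.115. *Vegfb*, named after its values were seen, had 4.97 ± 0.284 CPM in WT and 5.94 ± 0.876 CPM in TG skin (FDR 0.297). The third, placental growth factor *Pgf*, had 7 to 24 counts per library and did not pass the filter.

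The receptor genes gave different values from each other. *Kdr* (ENSMUSG00000062960, chromosome 5 from 75932827 to 75978458) had 24.5, 22.3 and 25.4 CPM in WT and 21.6, 26.1 and 28.8 CPM in TG skin. TG1 was the lowest and TG3 the highest of the 6 libraries, so the groups overlapped, and the log2 fold change was 0.085 (SE 0.12, 95% interval -0.19 to 0.36, FDR 0.681). *Flt1* (ENSMUSG00000029648, chromosome 5 from 147561604 to 147726011) had 12.1, 13.5 and 13.4 CPM in WT and 15.6, 19.9 and 21.2 CPM in TG skin. The lowest TG library was above the highest WT library. The means were 13 ± 0.756 CPM in WT and 18.9 ± 2.92 CPM in TG skin (log2 fold change 0.54, SE 0.13, 95% interval 0.24 to 0.84, unadjusted p = 0.00395 and FDR 0.0651 in edgeR's quasi-likelihood test fitted over all genes). The FDR of *Flt1* was 0.0754 by voom, 0.0258 by the likelihood-ratio test and 0.016 by DESeq2, so the call depends on the test. It also depends on single libraries in the likelihood-ratio test, where the FDR of *Flt1* was 0.1, 0.118 and 0.116 without WT1, WT2 and WT3, 0.0085 and 0.0439 without TG1 and TG2, and 0.154 without TG3.

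*Flt4* (ENSMUSG00000020357, chromosome 11 from 49609263 to 49652739), which in adult skin marks mainly lymphatic vessels, had 8.45, 5.48 and 7.88 CPM in WT and 9.44, 11.6 and 8.16 CPM in TG skin. TG3 fell within the WT range, TG1 and TG2 above it, and the log2 fold change was 0.43 (SE 0.2, 95% interval -0.05 to 0.9, FDR 0.229). Without WT2 it was 0.25. None of the 9 tested genes among 10 VEGF co-receptor and signalling genes passed the quasi-likelihood test, the likelihood-ratio test, voom or DESeq2, and 3 had an unadjusted p below 0.05 in the first. Of these 9, 4 were higher and 5 lower in TG skin, with a median log2 fold change of -0.044. The highest mean CPM over the 6 libraries, a value not scaled to length, was that of the co-receptor gene *Nrp2*, but not in WT skin alone. It had 135 ± 13.2 CPM in WT and 131 ± 1.17 CPM in TG skin (FDR 0.756). The lowest p was that of the phosphatase gene *Ptpn11* (140 ± 4.56 CPM in WT, 123 ± 4.97 CPM in TG, log2 fold change -0.19, SE 0.058, FDR 0.105). *Sh2d2a* was under the filter.

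**Figure D3:**
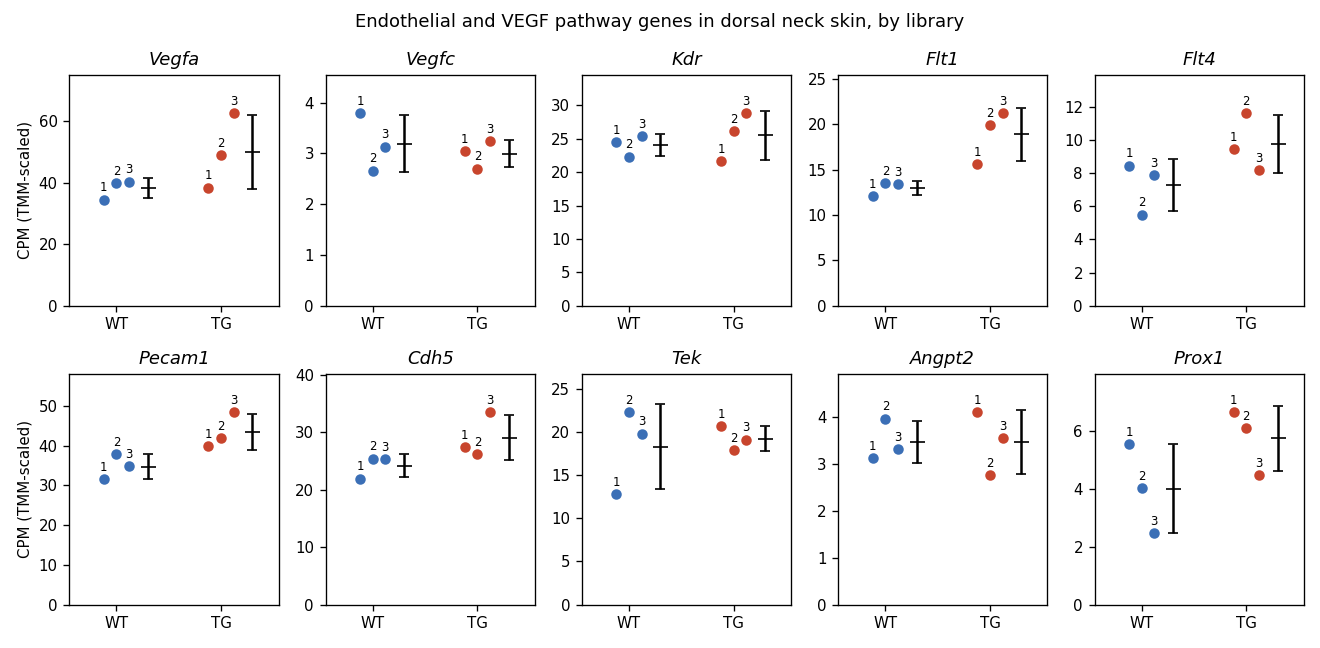
TMM-scaled CPM of each of the 10 genes in every library (numbers are replicate numbers; WT blue, TG red), with the mean and SD of each genotype beside the points and axes that start at 0. Of the TG libraries, TG3 had the highest level of 6 genes (*Vegfa*, *Vegfc*, *Kdr*, *Flt1*, *Pecam1* and *Cdh5*).

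The junction genes are the usual measure of how much endothelium a sample holds. *Pecam1* (ENSMUSG00000020717, chromosome 11 from 106654217 to 106750628) had 31.6, 37.9 and 34.8 CPM in WT and 39.9, 41.9 and 48.5 CPM in TG skin. All TG libraries were above all WT libraries, TG1 by a small margin over WT2. The fold was 1.25 (log2 fold change 0.32, SE 0.1, 95% interval 0.081 to 0.56) with an unadjusted p of 0.0158, adjusted to an FDR of 0.109 over all genes in edgeR. *Cdh5* (ENSMUSG00000031871, chromosome 8 from 104101625 to 104144511), which unlike *Pecam1* is not found on leukocytes, had 21.9, 25.4 and 25.3 CPM in WT and 27.4, 26.2 and 33.5 CPM in TG skin. The groups were again apart, TG2 lying just above WT2 and WT3. The fold was 1.2 (log2 fold change 0.26, SE 0.11, 95% interval -0.0096 to 0.53) with an FDR of 0.202. The log2 fold change of *Cdh5* was 0.15 without TG3.

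*Tek* (ENSMUSG00000006386, chromosome 4 from 94739289 to 94874976) had 12.8, 22.3 and 19.8 CPM in WT and 20.7, 17.9 and 19.1 CPM in TG skin. WT1 stood low and the other 5 libraries lay close together, so the WT spread (18.3 ± 4.91 CPM) was wider than that of TG skin (19.2 ± 1.4 CPM), and the log2 fold change was 0.072 (SE 0.19, 95% interval -0.39 to 0.53, FDR 0.845). *Angpt2* (ENSMUSG00000031465, chromosome 8 from 18690263 to 18741562) had 3.13, 3.97 and 3.32 CPM in WT and 4.11, 2.76 and 3.55 CPM in TG skin. The TG libraries held both the highest and the lowest value, the means were 3.47 ± 0.441 and 3.47 ± 0.677 CPM, and the log2 fold change was -0.0031 (SE 0.19, 95% interval -0.45 to 0.45, FDR 0.992). The interval leaves room for a difference of up to 0.45 in either direction on the log2 scale. *Angpt2* lies on the opposite strand within *Mcph1*, with which it shares 0 exon bases.

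Of 5 further angiopoietin and TIE genes, 4 were tested, 0 passed the quasi-likelihood test and 2 had an unadjusted p below 0.05, with 2 higher and 2 lower and a median log2 fold change of 0.14. The likelihood-ratio test and voom called 0 and DESeq2 called 1. *Tie1*, the partner receptor of TEK, had 8.39, 9.3 and 7.69 CPM in WT and 11.4, 11.5 and 11.3 CPM in TG skin. The 3 TG libraries were nearly equal and all above WT (log2 fold change 0.43, SE 0.1, FDR 0.0651). *Svep1*, with the highest CPM of these genes, had 87.3 ± 5.38 CPM in WT and 110 ± 9.84 CPM in TG skin (log2 fold change 0.33, SE 0.083, FDR 0.0706), the gene called by DESeq2 (FDR 0.0138). *Angpt4* was under the filter.

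*Prox1* (ENSMUSG00000010175, chromosome 1 from 190118035 to 190170714) had 5.54, 4.02 and 2.47 CPM in WT and 6.66, 6.11 and 4.48 CPM in TG skin. TG3 fell within the WT range and the other TG libraries above it. The log2 fold change was 0.5 (SE 0.29, 95% interval -0.18 to 1.18, FDR 0.314), with the largest SE of the 10 genes and 26 to 120 counts per library. Without WT3 it was 0.28 and without WT1 0.8. *Prox1* shares 133 exon bases with the antisense gene *Prox1os*, on which 0 to 1 counts fell.

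Ratios of 2 genes within a library do not depend on scaling, and 9 were tested by a two-sided exact permutation test, for which 3 against 3 libraries cannot give a p below 0.1. The log2 ratio of *Flt1* to *Kdr*, both endothelial VEGFA receptors, was -1.01, -0.73 and -0.93 in WT and -0.47, -0.39 and -0.45 in TG skin. The libraries of the genotypes did not overlap, and the TG mean was higher by 0.45 (exact permutation p = 0.1, adjusted over the 9 ratios 0.3). The ratio of *Flt1* to *Cdh5* was also apart, with -0.86, -0.92 and -0.92 in WT and -0.81, -0.4 and -0.66 in TG skin, TG higher by 0.27 (exact p = 0.1, adjusted 0.3). TG1 lay close to WT1 in this ratio, and the difference was 0.16 without TG2. The log2 ratio of *Vegfc* to *Flt4* was -1.16, -1.04 and -1.33 in WT and -1.63, -2.11 and -1.33 in TG skin. It was lower in TG by 0.51, a difference of -0.51 (exact p = 0.1, adjusted 0.3), although WT3 and TG3 were nearly equal and the difference was -0.3 without TG2.

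The ratio of *Vegfa* to *Kdr*, ligand to main receptor, was 0.49, 0.83 and 0.66 in WT and 0.82, 0.91 and 1.12 in TG skin, with TG1 just below WT2 (difference 0.29, exact p = 0.2, adjusted 0.36). The ratio of *Kdr* to *Cdh5* differed by -0.18 (exact p = 0.2, adjusted 0.36), that of *Tek* to *Cdh5* by -0.15 (exact p = 0.5), and that of *Pecam1* to *Cdh5* by 0.064 (exact p = 0.4). The ratio of *Flt4* to *Prox1* differed by -0.15 (exact p = 0.9) and that of *Angpt2* to *Tek* by -0.12 (exact p = 0.7). The genotypes overlapped in each of these 6 ratios, and no ratio passed the test after adjustment, which the smallest possible p does not allow.

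**Figure D4:**
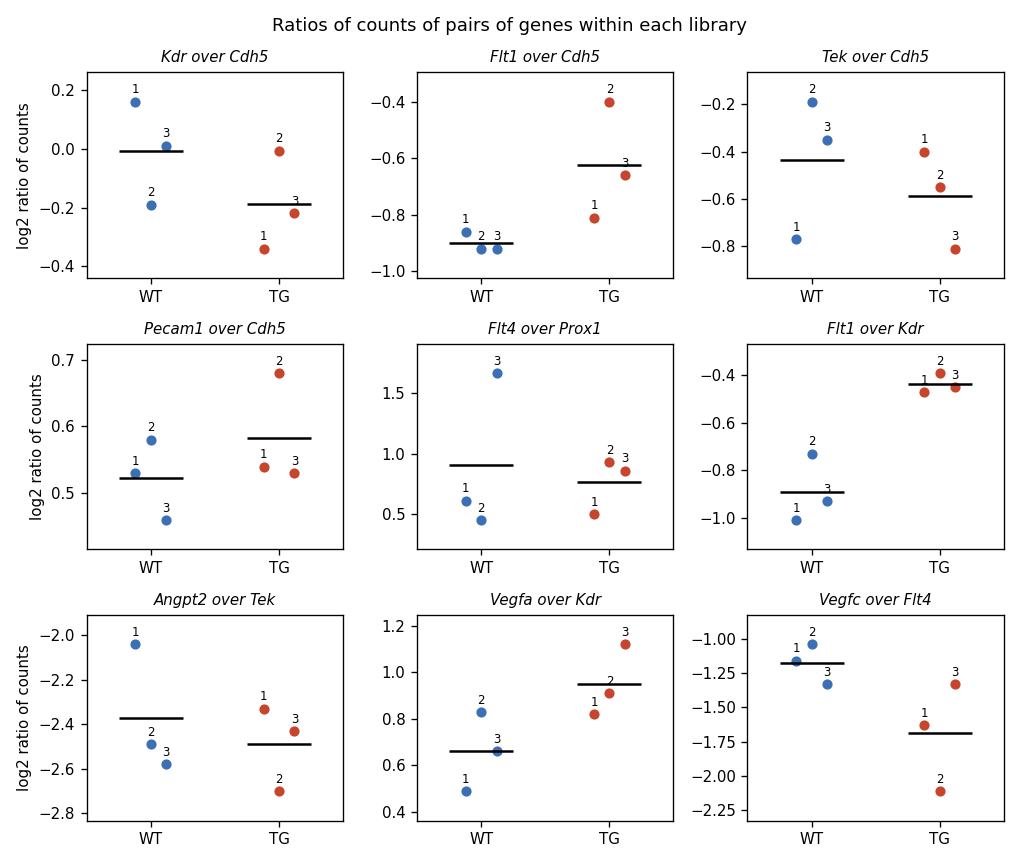
Log2 ratio of the counts of 2 genes within each library for the 9 pairs, with numbered points per library (WT blue, TG red) and bars at the genotype means; each panel has its own axis. The genotypes are apart for *Flt1* over *Kdr*, *Flt1* over *Cdh5* and *Vegfc* over *Flt4*.

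Further vessel genes were read in lists. Of 25 pan-endothelial markers, 1 passed the test, 21 were higher and 4 lower in TG skin, with a median log2 fold change of 0.17. The groups were apart for 8 of them, all higher, where 15.5% of all genes tested had every TG library above every WT library. The gene that rose was *Ackr1*, the chemokine-binding receptor of venules, with 3.29, 3.13 and 2.94 CPM in WT and 4.66, 5.93 and 5.79 CPM in TG skin (log2 fold change 0.8, SE 0.15, FDR 0.0477). The call was not kept by voom (FDR 0.0568) nor without any 1 of the 6 libraries (0.0538 to 0.186). The likelihood-ratio test called 5 of the 25 markers, DESeq2 4 and voom 0. Over all genes, the shares called in these settings were 10.4%, 10.5% and 1.65%. The 4 lower markers were *Gpihbp1* (log2 fold change -0.22, FDR 0.48), *Erg* (-0.19, FDR 0.492), *Tspan12* (-0.17, FDR 0.584) and *Robo4* (-0.029, FDR 0.941). Other venular and endothelial genes, picked from the higher markers after their values were seen, passed in some settings only. *Sele* (E-selectin) had 1.16 ± 0.495 CPM in WT and 3.17 ± 0.613 CPM in TG skin, with an FDR of 0.0616, and of 4.4e-05 by the likelihood-ratio test, 0.00738 by DESeq2 and 0.049 without TG2. *Selp* (P-selectin) had 1.43 ± 0.392 and 2.53 ± 0.0868 CPM (FDR 0.086, and 0.0396 by the likelihood-ratio test, 0.163 by DESeq2 and 0.0861 by voom). *Eng* (endoglin) had 14.3 ± 1.37 and 20.3 ± 1.25 CPM. Its FDR of 0.0526 was 0.0495 with RLE and 0.0456 with upper-quartile scaling, 0.0433 without a filter, 0.0216 by the likelihood-ratio test and 0.00565 by DESeq2, so *Eng* stood at the threshold. The marker with the highest CPM, *Cd34*, which hair follicle and stromal cells also express, had 175 ± 5.53 CPM in WT and 178 ± 13.4 CPM in TG skin (FDR 0.895). The summed level of the 25 genes was 347 to 359 CPM in WT and 371 to 403 CPM in TG skin.

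Of 11 further lymphatic genes, 9 were tested, 0 passed the quasi-likelihood test and 5 had an unadjusted p below 0.05, with 7 higher and 2 lower and a median log2 fold change of 0.48. The likelihood-ratio test and DESeq2 each called 3, *Pdpn*, *Nfatc1* and *Reln*, and voom called 0. Their summed level was 133 to 164 CPM in WT and 179 to 219 CPM in TG skin. *Pdpn* (podoplanin), which keratinocytes and fibroblasts can also express, had 29, 24 and 29.9 CPM in WT and 34.7, 38.5 and 39.6 CPM in TG skin (log2 fold change 0.44, SE 0.1, FDR 0.0622, and 0.0484 by the likelihood-ratio test and 0.00787 by DESeq2). *Nfatc1*, a transcription factor of lymphatic valves and of hair follicle stem cells and the gene with the highest CPM, had 28 ± 4.28 CPM in WT and 42 ± 6.38 CPM in TG skin, with every TG library above WT (log2 fold change 0.58, SE 0.15, FDR 0.0691, and 0.0158 and 0.00432 by those tests). *Reln* (reelin) had 15.9 ± 2.24 and 23.7 ± 4.81 CPM (FDR 0.0903, and 0.0316 and 0.0209). The hyaluronan receptor *Lyve1*, which some macrophages share, was one of the lower genes, with 14.7 ± 2.13 CPM in WT and 12.7 ± 0.508 CPM in TG skin (log2 fold change -0.2, SE 0.12, FDR 0.325). The chemokine gene *Ccl21a*, made by lymphatic endothelium, had 12.3 ± 1.7 and 17.7 ± 3.33 CPM (FDR 0.106). *Reln*, *Lyve1* and *Ccl21a* were named after their values were seen. *Nts* and *Foxc2* were under the filter.

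Of 13 tip cell and arterial Notch genes, 12 were tested and 1 passed, with 7 higher and 5 lower and a median log2 fold change of 0.055. Every TG library was above every WT library for 1 of them and below for 4, where 15.5% and 18.2% of all genes tested stood so. *Notch1* fell, with 336, 322 and 319 CPM in WT and 241, 227 and 253 CPM in TG skin (log2 fold change -0.44, SE 0.063, FDR 0.0398). *Notch1* is also a receptor of suprabasal epidermis and hair follicle, so its level in whole skin is not that of vessels alone. The call was lost without any of the 6 libraries but TG2 (FDR 0.0649 to 0.178). *Unc5b*, a netrin receptor of tip cells, named after its values were seen, had 91.6 ± 2.82 CPM in WT and 54.5 ± 17.1 CPM in TG skin. Its FDR was 0.0924, and 0.0105 by the likelihood-ratio test, 0.00586 by DESeq2, 0.0835 by voom and 0.018 without TG2. Its log2 fold change was -0.75, and -0.5 without TG2. TG2, the library with the lowest hair marker level, had 35.2 CPM, against 60.9 in TG1 and 67.5 in TG3. The part of vessel cells in the level of *Unc5b* in whole skin was not tested. *Esm1*, the classical VEGFA-induced tip cell gene, was under the filter. Of 10 mural cell genes, which mark pericytes and vascular smooth muscle, 9 were tested, 0 passed the quasi-likelihood test, the likelihood-ratio test or voom and 2 had an unadjusted p below 0.05 in the first, with 5 higher and 4 lower (median log2 fold change 0.061). *Pdgfrb*, the pericyte receptor, had 40.5 ± 5.18 CPM in WT and 53 ± 4.53 CPM in TG skin (log2 fold change 0.39, SE 0.11, FDR 0.0874, and 0.0254 by DESeq2, which called this gene alone), and *Des*, the gene with the highest CPM and also a muscle gene, had 123 ± 62.7 and 83.3 ± 32.9 CPM (FDR 0.471). *Higd1b* was under the filter.

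In a list of 13 VEGFA regulators and hypoxia genes, 1 passed, with 11 higher and 2 lower. The median log2 fold change was 0.29, with 0.19 without WT1 and 0.38 without TG1. The gene that passed encodes a transporter and not a regulator of VEGFA. *Slc2a1*, the glucose transporter GLUT1, rose from 23.4, 25.4 and 29.4 CPM in WT to 53.5, 54.5 and 62.4 CPM in TG skin (log2 fold change 1.12, SE 0.11, FDR 0.0194), a call lost without WT2 (FDR 0.147), WT3 (0.0513) or TG3 (0.0906). *Egln3*, a HIF prolyl hydroxylase and itself a HIF target, named after its values were seen, had 25.2 ± 2.05 CPM in WT and 51.3 ± 16.2 CPM in TG skin (log2 fold change 1.02, SE 0.22, FDR 0.0581). It passed without a filter (FDR 0.0444), without TG1 (0.0445), by the likelihood-ratio test (0.000219) and by DESeq2 (9.15e-05), but not by voom (0.0682). *Hif1a*, with the highest CPM, had 189 ± 2.43 and 212 ± 15.1 CPM (FDR 0.179). *Epas1*, *Arnt* and *Vhl* had an FDR of 0.0641, 0.56 and 0.518. Of 9 angiogenesis inhibitors, 1 passed, 6 were higher and 3 lower (median log2 fold change 0.12, with 0.063 without TG2 and 0.18 without TG1). Every TG library was above every WT library for 2 of them and below for 2, where 15.5% and 18.2% of all genes tested stood so. *Thbs1*, encoding the secreted inhibitor thrombospondin 1, rose from 110 ± 1.23 CPM in WT to 156 ± 12.1 CPM in TG skin (log2 fold change 0.51, SE 0.068, FDR 0.0346), a call lost without WT1 (FDR 0.055), WT2 (0.178), WT3 (0.134) or TG3 (0.0906). *Timp3*, which encodes a protease inhibitor that also blocks VEGFA from KDR, had the highest CPM of these, with 254 ± 5.98 and 212 ± 4.24 CPM (log2 fold change -0.26, SE 0.053, FDR 0.0535, and 0.239 by the likelihood-ratio test and 0.00479 by DESeq2).

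**Figure D5:**
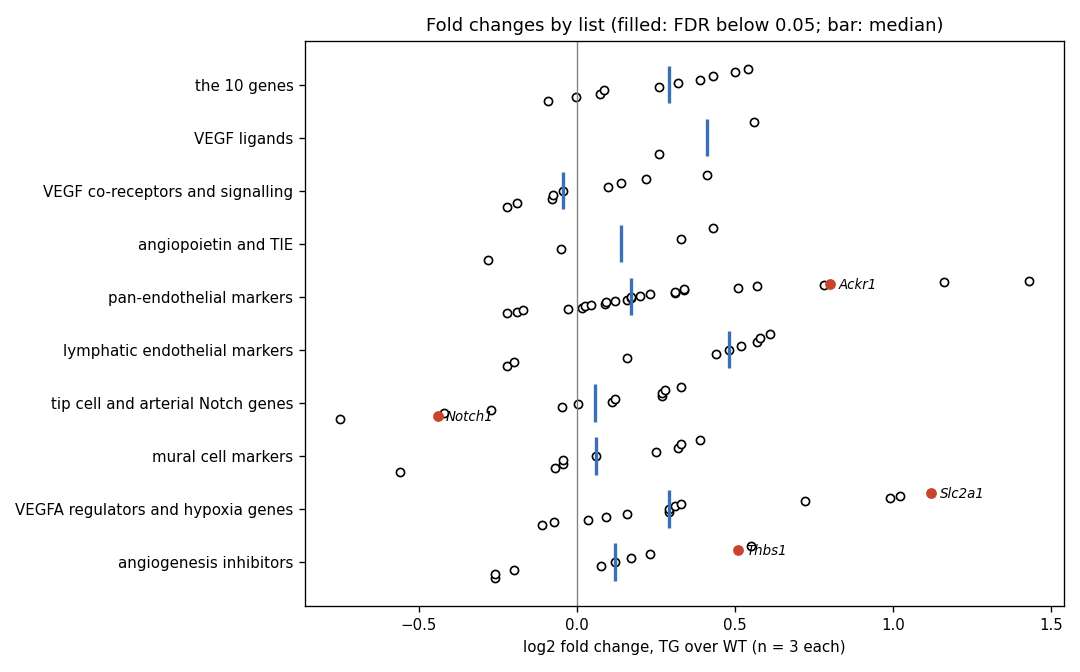
Log2 fold change of TG over WT for each tested gene of the 10 vessel genes and of 9 vessel and pathway lists, with filled points for genes called by the quasi-likelihood test (FDR below 0.05) and a bar at each list's median. *Ackr1*, *Slc2a1* and *Thbs1* are the filled genes above 0 and *Notch1* the one below.

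Across all 16 lists, 9 of 146 tested genes (6.16%) passed in the quasi-likelihood fit, compared with 35 (24%) by the likelihood-ratio test and 35 (24%) by DESeq2, where these tests called 1.91%, 10.4% and 10.5% of all genes. The lists were chosen with earlier results of these data known. With a library left out of that fit, 0 passed without WT2, without WT3 or without TG3. The other calls of the quasi-likelihood test were in the lists of macrophage and keratinocyte markers. The 10 macrophage markers, each with counts in every library, summed to 537 to 658 CPM in WT and 782 to 871 CPM in TG skin. Every TG library was above every WT library for 10 of 10, where 15.5% of all genes tested stood so. *Mrc1* and *Csf1r* rose (log2 fold changes of 0.54 with an FDR of 0.0341, and 0.54 with an FDR of 0.0456). The call of *Mrc1* was lost without WT1 (FDR 0.0583) and that of *Csf1r* without WT1 (0.0688) or TG1 (0.0709), besides those 3 libraries. *Pecam1* is also found on leukocytes and *Flt1* on monocytes and macrophages, and the part of these cells in the levels of either gene was not tested. The 9 keratinocyte markers summed to 6503 to 7845 CPM in WT and 10787 to 15159 CPM in TG skin, with 9 of 9 higher and 3 called. *Krt14*, the basal keratin, rose with a log2 fold change of 0.95 (FDR 0.03), as did the stress keratins *Krt16* (2.24, FDR 0.03) and *Krt6b* (2.85, FDR 0.0436). Besides those 3 libraries, the call of *Krt16* was lost without TG1 (FDR 0.0531) and that of *Krt6b* without WT1 (0.0639) or TG1 (0.0709). The suprabasal keratin *Krt10*, with the highest mean CPM of this list over the 6 libraries but not in TG skin alone, had 2043 ± 355 CPM in WT and 3047 ± 1231 CPM in TG skin (FDR 0.245). The part of keratinocytes, which express *Vegfa*, in the level of *Vegfa* was not tested.

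The quasi-likelihood test called 0 genes of the fibroblast, adipocyte, skeletal muscle and hair lists, in which 2, 0, 0 and 7 genes had an unadjusted p below 0.05. The likelihood-ratio test called 7 of 8 hair genes, as did the quasi-likelihood test without TG2, and DESeq2 called 1 fibroblast gene. In these lists *Lum* (236 ± 23.2 CPM in WT, 289 ± 14 CPM in TG, FDR 0.0935), *Plin1* (53.3 ± 2.04 and 62.5 ± 11, FDR 0.292), *Mylpf* (251 ± 163 and 110 ± 48.6, FDR 0.246) and *Hoxc13* (44 ± 3.24 and 20.7 ± 9.54, FDR 0.106) had the lowest p. The highest mean CPM over the 6 libraries were those of *Col1a1* (2397 ± 618 and 3014 ± 701, FDR 0.423), *Car3* (1029 ± 287 and 801 ± 88.2, FDR 0.314), *Myh4* (1611 ± 1019 and 705 ± 394, FDR 0.27) and *Tchh* (4041 ± 325 and 1718 ± 1238, FDR 0.225). In WT skin alone *Col1a1* was not the highest of its list. The 8 fibroblast markers summed to 5139 to 7385 CPM in WT and 6414 to 8720 CPM in TG skin, and the 7 adipocyte markers to 1307 to 2011 CPM in WT and 1282 to 1712 CPM in TG skin, so both overlapped between genotypes. WT1, the lowest library for *Tek*, *Angpt2*, *Pecam1*, *Cdh5*, *Flt1* and *Vegfa* among the WT libraries, was the highest of them for *Prox1*, *Flt4* and *Vegfc*. TG2, which had the lowest hair marker level, was the lowest TG library for *Vegfc*, *Cdh5*, *Tek* and *Angpt2* and the highest for *Flt4*. Without TG2 the log2 fold change of *Flt1* was 0.52, and that of *Pecam1* was 0.36. Without WT1 they were 0.5 and 0.26. Without TG3, the highest library for 6 of the genes within TG, these values were 0.45 and 0.24.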

How the data were processed

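For the 6 libraries, raw counts by Ensembl identifier were deposited by the authors. Paired-end reads were mapped to GRCm38 with TopHat2 and Bowtie2 2.1.0 and counted with HTSeq, for uniquely mapped reads, per the submitters' processing notes and the study's methods. The notes give TopHat2 2.0.12 and the methods an earlier version. The labels name a stranded total RNA kit and the methods mRNA. The strand setting and the annotation release are not given in the sources used here, so overlapping genes are uncertain. Of the identifiers, 558 have no name in GENCODE M21, and 1 list gene (*Krt85*) was not matched.

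Genes that reached 1 CPM in 3 or more libraries were tested with edgeR 4.0.16 (TMM, glmQLFit, glmQLFTest, genotype as the only term) in R 4.3.3, with Benjamini-Hochberg adjustment. The SE is the log2 fold change divided by the square root of F. Alternatives were the likelihood-ratio test, voom (limma 3.58.1), DESeq2 1.42.0, RLE and upper-quartile scaling, other filters, a replicate block, and the fit without each library in turn. The likelihood-ratio test without each library was added after seeing the data. Scripts were tested on a single simulated data set, in which every test made a larger share of false calls than the threshold allows. There the likelihood-ratio test and DESeq2 made a larger share than the quasi-likelihood test and voom. A single set cannot give the error rate of a test in general. The 10 genes and 16 lists were chosen with earlier results of these data known. Named genes are the 10, and in each list the genes past the threshold (at most 3), or the lowest p where none passed, and the highest mean CPM over all libraries. Intervals cover the fit over 3 mice per group.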

Additional observations from a re-analysis of the deposited data

How the results depend on the processing

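Signs were kept in 702 of 714 values of 51 named genes over 14 alternative settings, and 0 of the 12 reversals were of a called gene. Genes named with the main fit alone, such as *Erg* and *Epas1*, are not among the 51. *Angpt2*, at -0.0031, turned to 0.0071 with RLE, 0.019 with upper-quartile factors, and 0.0066 without a filter and with DESeq2. With each library left out, log2 fold changes ranged from -0.12 to 0.15 for *Angpt2*, -0.22 to 0.064 for *Vegfc*, -0.01 to 0.21 for *Kdr*, -0.13 to 0.24 for *Tek*, 0.2 to 0.57 for *Vegfa*, 0.25 to 0.56 for *Flt4*, 0.15 to 0.35 for *Cdh5*, 0.28 to 0.8 for *Prox1*, 0.45 to 0.68 for *Flt1*, 0.24 to 0.4 for *Pecam1*, -0.12 to 0.024 for *Nrp2* and -0.015 to 0.077 for *Cd34*. The TG minus WT difference of the log2 ratio of *Flt4* to *Prox1* then ranged from -0.38 to 0.24 and that of *Angpt2* to *Tek* from -0.22 to 0.047. For the ratios to *Cdh5*, it ranged from -0.27 to -0.098 for *Kdr*, -0.32 to -0.026 for *Tek* and 0.017 to 0.091 for *Pecam1*. Of the 10 genes, 1 was called by the likelihood-ratio test and 1 by DESeq2. Those with an unadjusted p below 0.05 were 2 in the main fit and 4 with upper-quartile factors. They were 5 without a filter, 4 in the likelihood-ratio test and 4 with a replicate block. Of all genes, 3968, 3971, 4665, 3017 and 2949 had such a p in these settings. In the likelihood-ratio test with a library left out, 1 was called without WT1 (*Prox1*), 2 without TG1 (*Vegfa* and *Flt1*), 1 without TG2 (*Flt1*) and 0 otherwise, where 11.3%, 9.39% and 8.35% of all genes were called without WT1, TG1 and TG2, and 4.12%, 5.07% and 9.14% without WT2, WT3 and TG3.

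The quasi-likelihood test called 288 of all genes, and 497 without a filter, while 1568 were called by the likelihood-ratio test and 1583 by DESeq2. List genes called were 9, and 35 by either of the latter tests. With each library left out, all genes called ranged from 0 to 817 (142 without WT1, 0 without WT2 or WT3, 83 without TG1, 817 without TG2, 0 without TG3), and list genes called from 0 to 20 (3 without WT1, 6 without TG1, 20 without TG2). In the settings with 0 calls, 2726, 2844 and 3692 genes had an unadjusted p below 0.05 without WT2, WT3 and TG3. With a replicate block, 0 of the 10 genes, 0 list genes and 0 of all genes were called, and 2949 genes had an unadjusted p below 0.05. Same-numbered WT and TG libraries deviated from their group means with correlations of -0.33, -0.23 and -0.05, and 0 of 6 libraries correlated best with their own number. So few libraries per genotype cannot tell whether same-numbered mice were paired. The causes of these changes were not tested. The medians of 3 vessel lists near 0 changed sign, to 0.024 and 0.013 for the co-receptor genes without WT1 and TG2, -0.0071 for the Notch genes without WT2 and -0.0088 for the mural genes without TG2. What depth limits was not tested beyond the filter, which left out genes such as *Pgf* with 7 to 24 counts per library.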

Other observations

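The 5 red blood cell markers, which mark blood cells held in a biopsy, were lower in TG skin for 5 of 5 genes, with a median log2 fold change of -0.8 (-0.49 without TG2), whereas 21 of 25 pan-endothelial markers were higher. None of the 5 passed the quasi-likelihood test of edgeR, in which 2 had an unadjusted p below 0.05. The likelihood-ratio test called 2, DESeq2 2, voom 0 and the quasi-likelihood test without TG2 1. Their summed level was 148, 146 and 95.1 CPM in WT1, WT2 and WT3, and 98.1, 42.5 and 85.2 CPM in TG1, TG2 and TG3, so that TG1 overlapped WT3. *Alas2*, which encodes the haem synthesis enzyme of erythroid cells, had 5.75 ± 0.375 CPM in WT and 2.98 ± 0.777 CPM in TG skin (log2 fold change -0.95, SE 0.2, FDR 0.0588, and 0.000664 by the likelihood-ratio test, 0.0097 by DESeq2 and 0.0423 without TG2), and *Hbb-bs*, a beta globin gene, had 69.8 ± 16.7 and 40.7 ± 16.7 CPM (log2 fold change -0.78, and -0.46 without TG2, FDR 0.193).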
